A study of Homo sapiens with 6 samples.

Results

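The AP-1 and EGR immediate early genes are the transcription factor genes FOS, FOSB, FOSL1, FOSL2, JUN, JUNB, JUND, EGR1, EGR2 and EGR3. They were taken by gene symbol from a table of 35993 genes, with no threshold on a measured value, and all 10 were found there and were among the 14728 genes with enough counts for a test. The cells were MIA PaCa-2, a human pancreatic cancer line, and their mRNA was read by RNA-seq. In 3 libraries the cells were left untreated, and in the other 3 they had received 4 µM rhCYGB, a recombinant form of the human heme protein cytoglobin, for 48 h. Both groups had been grown with 10% FBS and 2.5% horse serum and moved to 1% FBS a day before the treatment began. No vehicle control is named in the sources used here, and only this single time after rhCYGB was sampled.

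AP-1 is a pair of basic leucine zipper (bZIP) proteins. A JUN protein pairs with another JUN, with a FOS protein or with a relative such as an ATF or MAF protein, and the pair binds short TGA-containing sites, whereas FOS proteins do not form stable pairs with each other. EGR proteins bind GC-rich sites with zinc fingers and work alone or with the NAB co-repressors. The genes are called immediate early because many of them are transcribed within minutes of a growth factor or a stress, through the ERK, JNK and p38 kinase cascades, before new protein is made. In tumor cells with an active RAS pathway, FOSL1 is known as a long-lasting output of ERK signaling.

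The 250 bases upstream of the start were taken from RefSeq on GRCh38.p14 for the 8 of 10 genes found in the promoter table, which gave 10 windows because EGR2 has several starts. FOSL1 and EGR3 had no entry. The windows below belong to the JUN genes, which moved apart after rhCYGB, and to FOS and EGR1, the best known serum-induced members. Each is printed 5′ to 3′ on the strand of the gene, and capitals mark matches on either strand to the searched motifs.
JUN (chr1:58784048-58784297, minus strand): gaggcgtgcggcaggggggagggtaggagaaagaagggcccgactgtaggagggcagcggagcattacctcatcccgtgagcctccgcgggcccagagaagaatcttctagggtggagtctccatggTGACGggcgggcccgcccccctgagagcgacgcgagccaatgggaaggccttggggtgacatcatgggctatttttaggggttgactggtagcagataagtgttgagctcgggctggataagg
JUND (chr19:18281623-18281872, minus strand): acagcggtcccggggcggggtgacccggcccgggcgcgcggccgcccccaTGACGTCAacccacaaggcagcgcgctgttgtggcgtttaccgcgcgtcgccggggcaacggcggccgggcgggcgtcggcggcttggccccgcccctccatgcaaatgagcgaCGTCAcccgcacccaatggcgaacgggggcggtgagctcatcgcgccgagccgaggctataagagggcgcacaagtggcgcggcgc
JUNB (chr19:12791236-12791485, plus strand): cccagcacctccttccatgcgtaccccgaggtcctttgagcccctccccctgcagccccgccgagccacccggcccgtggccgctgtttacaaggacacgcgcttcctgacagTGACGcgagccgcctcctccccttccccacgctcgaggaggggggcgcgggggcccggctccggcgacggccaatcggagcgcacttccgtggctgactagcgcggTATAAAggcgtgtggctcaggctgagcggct
FOS (chr14:75278578-75278827, plus strand): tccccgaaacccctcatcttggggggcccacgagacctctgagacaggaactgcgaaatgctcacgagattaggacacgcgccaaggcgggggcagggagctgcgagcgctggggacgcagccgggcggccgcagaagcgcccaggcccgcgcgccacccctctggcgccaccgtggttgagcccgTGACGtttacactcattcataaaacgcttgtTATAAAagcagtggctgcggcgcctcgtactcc
EGR1 (chr5:138465229-138465478, plus strand): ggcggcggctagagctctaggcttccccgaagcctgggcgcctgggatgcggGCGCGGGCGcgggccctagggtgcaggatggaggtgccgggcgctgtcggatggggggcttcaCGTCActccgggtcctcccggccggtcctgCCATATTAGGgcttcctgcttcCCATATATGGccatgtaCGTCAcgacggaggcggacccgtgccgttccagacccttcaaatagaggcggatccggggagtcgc

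The motifs searched were the CArG box, which the serum response factor SRF binds, the AP-1 site TGANTCA, the cAMP response element TGACGTCA and its core TGACG (which lies within it), the EGR site GCGNGGGCG, the TATA box TATAAA and the ETS site CCGGAAG. EGR1 held 2 CArG boxes, at -105 to -96 and -83 to -74 from the start. Another lay in 1 of the EGR2 windows, at -71 to -62. The FOS window held no CArG box, but bases further upstream were not searched for any gene. A site there would have been missed. Of 35116 promoter windows in the table, 1.16% held a CArG box. JUND was the only member with the whole TGACGTCA, at -200 to -193, which 1.65% of all windows held. The core TGACG was found in JUN, JUND, JUNB, FOSL2, FOS, FOSB, EGR1 and 1 EGR2 window, against 21.2% of all windows. A TATAAA between -33 and -25 was found in FOS, JUNB and FOSB, and 10.7% of all windows held a TATAAA at any position. EGR1 also held 1 GCGNGGGCG, at -198, which 8.41% of all windows had. No member window held TGANTCA or CCGGAAG, which were found in 6.57% and 8.52% of all windows. Only exact matches were marked, so a variant site such as tgacatca in the JUN window, close to TGACGTCA, stayed in lower case. These letters are descriptions of the windows, and binding was not measured.

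Gene counts summed to between 34838399 and 42271299 per library, so that 3 counts corresponded to 0.0669 to 0.0902 CPM, the unit of counts relative to a library size scaled with TMM factors. Libraries of a group varied little, with a coefficient of variation from the common dispersion of 5.48%, and a small fold change could therefore pass the test. Nothing in the sources says whether the 3 libraries of a group were grown separately, and the p-values measure only the spread between these libraries. Of 7 markers of an epithelial tumor line, VIM included, EPCAM had 0 counts in every library and CDH1 at most 2 in any, and the summed level of the 7 genes was 11760 to 12160 CPM in untreated and 14500 to 15220 CPM in rhCYGB libraries. The higher sum came from VIM, a mesenchymal gene, at 8013 and 11740 CPM, while KRT8 fell from 2085 to 1190 CPM and KRT19 from 260 to 171 CPM, and KRT18 did not pass the test. Of 13 markers of other cell types, 7 were at 0 everywhere, among them PTPRC, PECAM1 and INS, and 11 had at most 10 counts in any library. Their sum was 38.3 to 42.8 CPM in untreated and 70.6 to 72.7 CPM in rhCYGB libraries, mostly CD68, which rose, while COL3A1 fell from 146, 190 and 155 counts to 2, 2 and 9. Their part in the results was not tested.

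Of the 10 genes, 8 were higher after rhCYGB, JUNB was lower, and FOS did not pass the test, with the limit set at 0.05 for the Benjamini-Hochberg adjusted p of the quasi-likelihood test of edgeR. Over all genes tested, 39.0% were called higher and 38.6% lower by the same rule. FOSL1, FOSL2, JUN, JUND and EGR2 rose by 2-fold or more, a call that 12.4% of all genes reached upwards and 14.7% downwards, and 0 of the 10 genes fell by 2-fold. The same 8 genes had every rhCYGB library above every untreated library, and JUNB had every rhCYGB library below, against 39.8% and 39.7% of all genes. The median log2 fold change was 0.96 over the 10 genes and -0.005 over all genes tested. Because RNA was taken from whole cultures, fewer cells expressing a gene and less RNA per cell cannot be told apart.

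**Figure D1:**
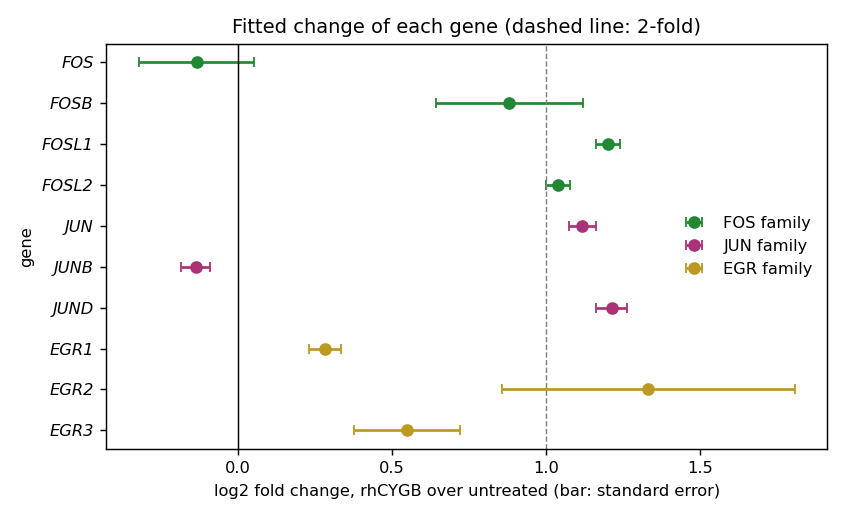
Fitted log2 fold change of each gene, rhCYGB over untreated, as points with bars of 1 standard error, coloured by family, with a dashed line at 2-fold. FOSL1, FOSL2, JUN and JUND lie between 1.04 and 1.21 with short bars, FOS and JUNB lie just below 0, and EGR2 has the widest bar.

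JUN and JUND rose together, while JUNB fell slightly. JUN encodes c-Jun, the AP-1 subunit that JNK phosphorylates. Its level was 151, 145 and 135 CPM in the untreated libraries and 315, 316 and 305 CPM after rhCYGB. The groups were far apart, and the log2 fold change was 1.12 (standard error or SE 0.0426, edgeR adjusted p = 2.44e-12). JUND, a broadly expressed JUN protein that menin binds, had 212, 202 and 189 CPM in the untreated and 484, 480 and 435 CPM in the rhCYGB libraries. It had the largest rise of the JUN genes, with a log2 fold change of 1.21 (SE 0.0499, edgeR adjusted p = 5.9e-12). JUNB, a JUN protein that often activates more weakly than c-Jun, was at 69.8, 69.2 and 66.9 CPM in the untreated and 60.6, 66.1 and 60.4 CPM in the rhCYGB libraries. The second rhCYGB library came within 1 CPM of the lowest untreated one, and the log2 fold change was -0.14 (SE 0.0475, edgeR adjusted p = 0.0153). The call for JUNB was lost without untreated library 1 or 2 or without rhCYGB library 1 or 3, where the adjusted p from edgeR was 0.0613, 0.0626, 0.0826 and 0.0547.

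FOSL1 and FOSL2 carried most of the FOS family RNA, and both were higher after rhCYGB. FOSL1 encodes FRA-1, and its level was 76.0, 74.9 and 72.8 CPM in the untreated libraries and 171, 168 and 176 CPM after rhCYGB. Its log2 fold change of 1.20 had the smallest standard error of the 10 genes (0.0385, adjusted p = 3.71e-13 from edgeR's test). FOSL2, which encodes FRA-2, was at 76.8, 75.1 and 72.2 CPM in untreated and 154, 152 and 154 CPM in rhCYGB libraries, a log2 fold change of 1.04 (SE 0.0387, edgeR adjusted p = 1.96e-12). Its rise lay under 2-fold with upper-quartile factors (0.90), total counts (0.87) and limma on log2(FPKM + 1) or log2(FPKM + 0.1) (0.81 and 0.87), as did that of JUN (0.98, 0.95, 0.94 and 0.95), all on the log2 scale. In the deposited table FOSL2 overlaps FLJ31356, which had at most 2 counts in any library.

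FOS and FOSB were scarce in both groups. FOS, the founding serum-induced member with an unstable mRNA, had 94, 134 and 96 counts in the untreated and 81, 73 and 103 counts in the rhCYGB libraries, or 2.52, 2.99 and 2.35 against 2.18, 2.19 and 2.79 CPM. The groups overlapped, and the log2 fold change of -0.13 did not pass the test (SE 0.187, edgeR adjusted p = 0.522). FOSB, known for a short splice form that accumulates in neurons, had 37, 39 and 40 counts in the untreated and 72, 49 and 67 counts in the rhCYGB libraries. Every rhCYGB library was above the untreated ones, with a log2 fold change of 0.88 (SE 0.239, edgeR adjusted p = 0.00356).

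All of the EGR genes were called higher, but from very different levels. EGR1, a zinc finger factor induced by serum and stress, had 71.1, 68.3 and 62.1 CPM in the untreated and 78.8, 84.4 and 81.7 CPM in the rhCYGB libraries. The gap between the groups was smaller than for JUN or FOSL1, and the log2 fold change was 0.28 (SE 0.0522, edgeR adjusted p = 0.000158). When libraries were scaled by total counts alone it was 0.12 and not called (adjusted p = 0.061 from edgeR's test). EGR3, which acts in muscle spindles and lymphocytes, had 72, 104 and 91 counts in the untreated and 108, 111 and 120 counts in the rhCYGB libraries, a log2 fold change of 0.55 (SE 0.172, edgeR adjusted p = 0.00943). Total counts gave 0.38 for EGR3, which was not called either (adjusted p = 0.0561 from edgeR's test). EGR2, the myelin regulator Krox20, had 12, 15 and 3 counts in the untreated libraries and 21, 26 and 19 after rhCYGB. Its fitted log2 fold change of 1.33 rests on these few reads (SE 0.476, edgeR adjusted p = 0.0192). Without untreated library 3 or rhCYGB library 2 it was 0.91 and 1.14, and the call was lost (adjusted p = 0.0839 and 0.0713 from edgeR's test).

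Levels of different genes were compared per length, as the deposited FPKM. JUND stood highest in both groups, at 97.2 ± 4.98 FPKM in untreated and 201 ± 9.39 FPKM in rhCYGB-treated cells (mean ± SD, n = 3 libraries each, as below). FOSL1 followed at 41.5 ± 0.757 and 85.4 ± 3.28 FPKM. JUN was next at 41.1 ± 1.95 and 79.6 ± 1.08 FPKM. In untreated cells the ranges of FOSL1 and JUN overlapped, the only neighbours in the order that did so in either group. JUNB was at 34.9 ± 0.524 and 28.3 ± 0.854 FPKM, EGR1 at 19.9 ± 1.22 and 21.6 ± 0.567 FPKM, and FOSL2 at 10.4 ± 0.241 and 19.0 ± 0.502 FPKM. A gap of 8.96 times in untreated and 20.1 times in rhCYGB-treated cells then separated FOSL2 from FOS, which was at 1.16 ± 0.140 and 0.943 ± 0.158 FPKM. EGR3, FOSB and EGR2 stayed under 1 FPKM in both groups. The order of the 10 genes by mean FPKM was the same with and without rhCYGB.

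**Figure D2:**
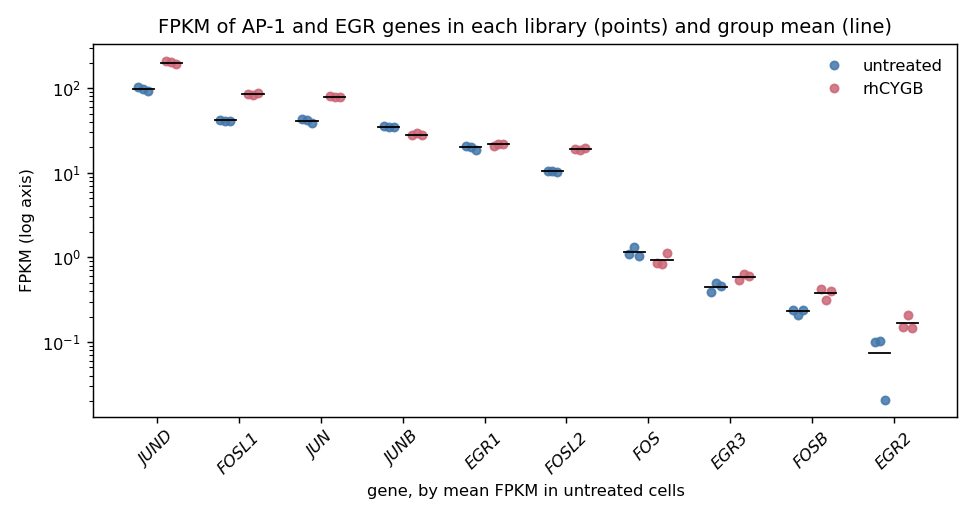
FPKM of each gene in each of the 6 libraries on a log axis, with blue points for untreated and red points for rhCYGB libraries, and lines at the group means. JUND, FOSL1, JUN and FOSL2 lie clearly higher after rhCYGB, JUNB lies lower, and FOS overlaps.

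Within the JUN family the share of JUNB fell, while those of JUND and JUN rose. The mean level of JUNB itself went only from 68.6 to 62.4 CPM. JUN went from 144 to 312 CPM and JUND from 201 to 466 CPM, so the smaller JUNB share goes mostly with a larger sum. Of the summed FPKM of the 3 JUN genes, JUNB took 19.6%, 20.2% and 20.8% in the untreated and 8.71%, 9.45% and 9.38% in the rhCYGB libraries. The mean share of JUND went from 56.1% to 65.03% and that of JUN from 23.7% to 25.8%. For each of these 3 shares the groups did not overlap, and no test was run on the shares. The summed level of the JUN genes was 180, 174 and 165 FPKM in untreated and 318, 310 and 298 FPKM in rhCYGB libraries, a ratio of means of 1.78. Per length, the FOS family kept FOSL1 as its main member. FOSL1 held a mean of 77.9% of the summed FPKM in untreated and 80.8% in rhCYGB-treated cells. FOSL2 went from 19.5% to 18.0%, and FOS from 2.17% to 0.891%. The summed level of the FOS genes was 54.2, 53.2 and 52.2 FPKM in untreated and 106, 102 and 109 FPKM in rhCYGB libraries, a ratio of 1.99. EGR1 made up 97.4% and 96.6% of the EGR family, whose summed level went from 20.5 ± 1.24 to 22.4 ± 0.625 FPKM, a ratio of 1.09. The deposited FPKM do not carry the TMM factors, so the ratios of summed levels are not on the scale of the fitted fold changes.

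**Figure D3:**
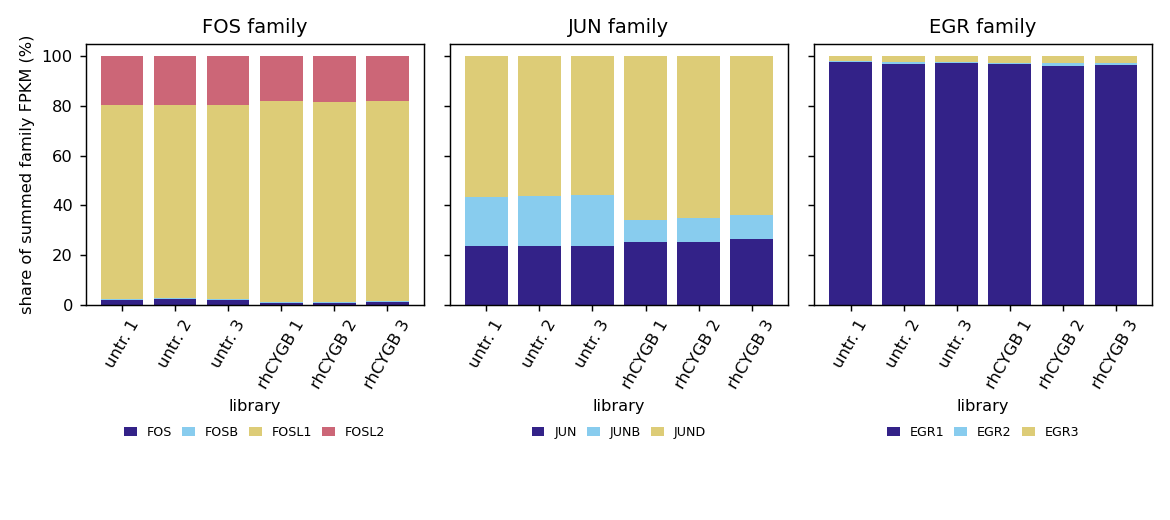
Share of each gene in the summed FPKM of its family, in percent, as stacked bars for each of the 6 libraries. The JUNB segment is near 20% in untreated and near 9% in rhCYGB libraries, while the FOS and EGR families keep FOSL1 and EGR1 as their main members.

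The deposited transcript table splits the 10 genes into 23 transcripts, 4 of which had 0 counts in every library. For FOSL1, the transcript NM_005438 held 59.0%, 70.1% and 61.9% of the counts in the untreated and 61.5%, 67.9% and 75.9% in the rhCYGB libraries, and these ranges overlapped. A minor form, NM_001300856, had 34, 3 and 11 counts in the untreated libraries and 167, 177 and 143 after rhCYGB, and its share rose above the untreated range, from at most 1.20% to at least 2.21%. A non-coding form, NR_125339, had 27, 18 and 28 counts against 120, 116 and 72. With 3 libraries against 3, the two-sided exact permutation test could not go below p = 0.1, which both minor forms reached, and over the 8 transcripts tested in 2 genes the adjusted p was 0.4 for each in this exact test. JUND is listed with a pair of transcripts of the same span and the same length of 1929 bases, and one of them, NM_001286968, held 2906 counts in untreated library 2 and at most 5 in any other, so the split of JUND between them cannot be read. A second FOSB transcript, NM_001114171, had 19 counts in rhCYGB library 1 and 0 in the others.

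**Figure D4:**
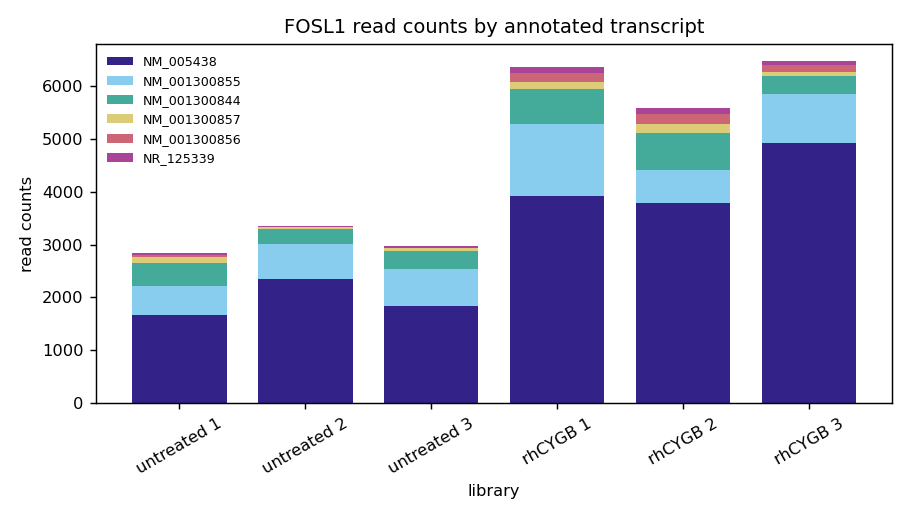
Read counts of FOSL1 in each library as stacked bars by annotated transcript, not scaled to library size. NM_005438 holds most of the counts in every library, and NM_001300856 has 3 to 34 counts in untreated and 143 to 177 in rhCYGB libraries.

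Genes around AP-1 and EGR were read from 10 lists by role, which hold 140 different genes in the table, 124 of them tested. Of these, 78 were called higher and 32 lower by the same edgeR fit, where all genes tested had 39.0% and 38.6%. By 2-fold or more 37 rose and 8 fell, against 12.4% and 14.7% of all genes. The lists were set beside these shares and the all-gene median of -0.005 as a description, without a test.

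Among the other bZIP partners of AP-1, 9 of 10 tested genes were higher and 1 was lower, with a median log2 fold change of 1.49. ATF3, a stress-induced partner of JUN proteins, rose from 248, 239 and 198 counts to 9723, 9160 and 9604 counts, a log2 fold change of 5.57. It went from 2.67 to 112 FPKM, so that after rhCYGB its mean level lay above that of every AP-1 member here other than JUND. MAFF, a small MAF protein, rose by 3.01 and JDP2, which pairs with JUN and represses AP-1 sites, rose by 2.89 on the log2 scale.

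Of the other immediate early genes, 14 of 18 tested were higher and 2 lower, with a median log2 fold change of 1.26. DUSP1, a phosphatase of JNK and p38, rose by 2.26, MYC by 2.21 and PHLDA1, a survival regulator, by 2.15 on the log2 scale. CTGF (CCN2), which encodes a matrix protein, fell by 1.04 on the log2 scale. CYR61 (CCN1), chosen after its value was seen, went the other way. Its mean level rose from 120.7 CPM in untreated to 518.9 CPM in rhCYGB libraries.

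The kinase genes upstream of AP-1 and EGR were called in both directions. In the RAS to ERK list 11 of 17 genes were higher and 4 lower, with a median log2 fold change of 0.40. RPS6KA2, a ribosomal S6 kinase, rose by 2.56 and BRAF by 1.25, and these were the only 2 genes of that list past 2-fold. In the JNK and p38 list 4 of 14 tested genes were higher and 8 lower, with a median of -0.36. MAPK8, which encodes JNK1, rose by 1.01, while MAP3K5, the oxidant-sensitive kinase ASK1, fell by 1.20 on the log2 scale. Of the factors that act on immediate early promoters (SRF, ELK, CREB and MEF2), 8 of 10 tested were higher and 2 lower, with a median of 0.61, and only MEF2D (1.63) and MEF2A (1.19) passed 2-fold. RNA levels do not measure the activity of these kinases and factors.

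Genes that ERK output induces, among them its feedback inhibitors, were mixed, with 7 of 10 higher and 3 lower and a median of 0.46. The ERK phosphatase gene DUSP5 rose by 3.33 and DUSP4 by 1.32, and SPRY2 rose by 1.24, while SPRY1, which like SPRY2 restrains receptor signaling, fell by 2.11 on the log2 scale. DUSP6, a readout of ERK that was chosen after its value was seen, had a log2 fold change of -0.33 (SE 0.0750, edgeR adjusted p = 0.000885). Also named after their values were seen, ETV5, SPRED1, ETV4 and SPRY4 were called higher, with log2 fold changes of 0.57, 0.51, 0.40 and 0.33. SPRED2 was called lower, at -0.24.

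Known targets of AP-1 did not move as one. Of 14 tested genes of 23 in the table, 9 were higher and 2 lower, with a median log2 fold change of 0.45. The chemokine gene CXCL8 rose by 4.01 and VEGFA by 3.76 on the log2 scale, whereas the cyclin gene CCND1 fell by 1.44. MMP1, a collagenase gene chosen after its value was seen, had 90, 96 and 29 counts in untreated and 77, 71 and 53 in rhCYGB libraries. Its log2 fold change of 0.10 had a wide standard error of 0.342, and the groups overlapped. Of the EGR targets and NAB genes, 10 of 14 tested were higher and 2 lower, with a median of 0.77. GDF15 rose by 5.58, the tissue factor gene F3 by 2.55 and PDGFA by 1.02 on the log2 scale. NAB2, an EGR co-repressor that was chosen after its value was seen, rose by 0.94 on the log2 scale, with a standard error of 0.0474.

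Genes that affect the life of AP-1 RNA and protein, not all of them by shortening it, were called in both directions. Their calls lay near the share of all genes (39.0% higher and 38.6% lower). In the list of AU-rich element decay, 5 of 11 genes were higher and 4 lower, with a median of -0.02. The decay factor ZFP36L1 rose by 1.91, ZFP36L2 by 1.80 and ZFP36 by 1.28 on the log2 scale. In the list of FOS and JUN protein turnover, 5 of 10 genes were higher and 4 lower, with a median of 0.03, and FBXW7, a ubiquitin ligase subunit for JUN, rose by 1.16 on the log2 scale.

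**Figure D5:**
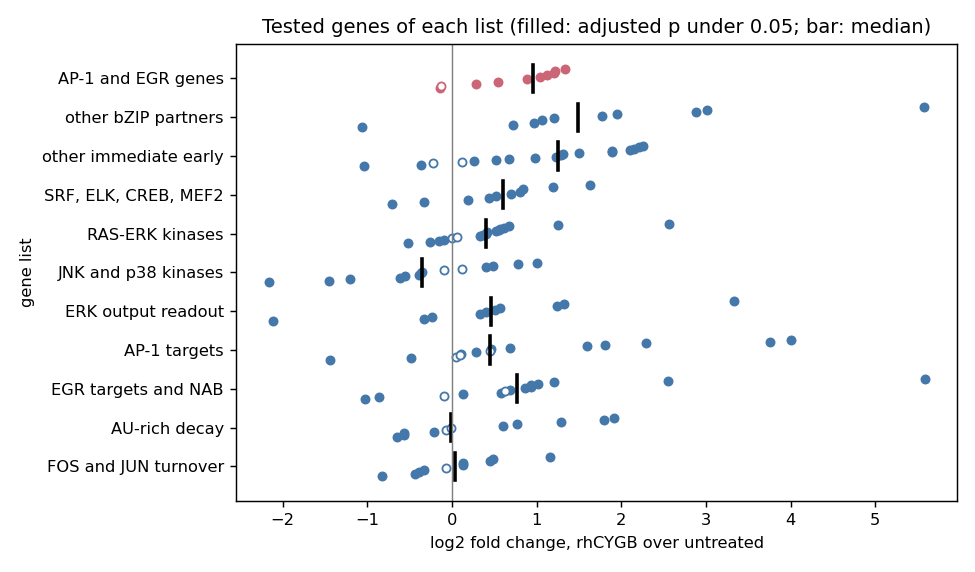
Log2 fold change, rhCYGB over untreated, of each tested gene in the 10 lists and of the 10 AP-1 and EGR genes, with filled points for an adjusted p under 0.05 and a bar at the median. The medians of the bZIP partners and of the other immediate early genes lie above 1, that of the JNK and p38 list lies below 0, and both decay lists sit near 0.

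Patterns of log2 CPM over the 6 libraries were compared, with each gene centred on its own mean. A prior count of 2, added before the log, flattens the pattern of a gene with few reads, such as EGR2. Its level therefore plays a part in its distances. Of 11541 genes with a mean of at least 100 counts, those closest in pattern to EGR2 were H4C11, MSH5 and FTH1P10. They lay at Euclidean distances of 0.824, 0.871 and 0.872. Those closest in pattern to JUNB, the called member that fell, were TRAPPC5, PUS1 and MRPS23, at 0.0551, 0.0597 and 0.0622. The pattern of JUNB is nearly flat, and these genes had log2 fold changes of -0.12, -0.13 and -0.14. Their small distances go with small changes and cannot be set beside those of EGR2. EGR2 was taken as the called member with the largest fitted rise, on 3 to 26 counts, and without untreated library 3 or rhCYGB library 2 its fitted rise lay below that of JUND and was not called.

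In the deposited transcript table, whose own genome build is not known, since the labels name only a mouse build, the genes lie as follows. FOS is on chromosome 14 from 75745531 to 75748933, FOSB on chromosome 19 from 45971254 to 45978437, FOSL1 on chromosome 11 from 65659520 to 65667997 and FOSL2 on chromosome 2 from 28615725 to 28640184. JUN is on chromosome 1 from 59246463 to 59249719, JUNB on chromosome 19 from 12902300 to 12904129 and JUND on chromosome 19 from 18390504 to 18392432. EGR1 is on chromosome 5 from 137801168 to 137804992, EGR2 on chromosome 10 from 64571756 to 64578927 and EGR3 on chromosome 8 from 22545172 to 22550993. Apart from FOSL2, none of them overlaps another gene of that table.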

How the data were processed

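RNA from 3 untreated and 3 rhCYGB-treated MIA PaCa-2 libraries was analysed. Per the labels, the authors checked reads with FastQC 0.11.7, mapped them with HISAT2 2.1.0 and assembled transcripts with StringTie 2.1.3b, from a stranded mRNA kit. Whether counting used strand is not stated. The read counts per gene and per transcript were deposited by the authors without normalization. The authors also deposited FPKM, scaled to length and depth, and the TPM columns deposited by the authors, 6 per table, were not used. The labels name a mouse build although the table holds human genes, so the build of the positions is not known.

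Counts were fitted with edgeR 4.0.16 in R 4.3.3 (filterByExpr, TMM, glmQLFit and glmQLFTest, all 6 libraries, no block), with Benjamini-Hochberg adjustment over 14728 genes. A gene was called at an adjusted p under 0.05, and by 2-fold where stated. Standard errors are the log2 fold change over the root of F. CPM uses TMM-scaled library sizes. The floor of 3 counts covers counting error only. Transcript shares were compared with two-sided exact permutation tests.

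The text names the 10 genes, up to 3 genes per list and direction with the largest called change of 2-fold or more and a mean of at least 100 counts in the higher group, and the 3 genes nearest to EGR2 and JUNB in log2 CPM centred per gene (prior count 2). Others are marked, and a gene that the rule picks from the AP-1 target list is not reported here by name. The members, lists and motifs were chosen with earlier results of these data known. The alternatives were other size factors, DESeq2 1.42.0, limma 3.58.1 on log2 FPKM with 1 or 0.1 added, no filter or at least 10 counts in every sample, counts summed from transcripts, the replicate number as a block, and each library left out. The fits were tested on simulated data in which few genes changed, equally upwards and downwards. That check does not cover the size factors in data with as many called genes as here.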

Additional observations from a re-analysis of the deposited data

How the results depend on the processing

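The direction of FOSL1, FOSL2, JUN and JUND and their adjusted p under 0.05 held under all 16 alternatives, with log2 fold changes of 1.02 to 1.22, 0.81 to 1.06, 0.94 to 1.15 and 1.04 to 1.26. FOS lay between -0.30 and -0.03 (adjusted p from 0.1 to 0.918 over edgeR, DESeq2 and limma) and was never called, and JUNB lay between -0.30 and -0.11. EGR1 was not called with total counts or in either limma fit on FPKM (adjusted p up to 0.0712), nor EGR3 with total counts or limma on log2(FPKM + 0.1) (adjusted p up to 0.0636). EGR2 could not be tested with at least 10 counts in every sample. The number of the 10 genes higher by 2-fold, 5, was 3 with upper-quartile factors, 3 with total counts, 2 with limma on log2(FPKM + 1) and 2 on log2(FPKM + 0.1), FOSL2 and JUN falling under 2-fold in each and EGR2 also in both limma fits. The number called lower ranged from 0 to 1 when a library was left out. The median of all genes was -0.15 with upper-quartile factors and -0.17 with total counts against -0.005 with TMM, and 42.4% and 41.0% of called genes were then higher against 50.2%.

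The number of list genes lower by 2-fold, 8, was 2 with limma on log2(FPKM + 1) and 5 on log2(FPKM + 0.1), and ranged from 5 to 7 when a library was left out, 5 being without rhCYGB library 3. The median of the FOS and JUN turnover list was -0.11 with upper-quartile factors, -0.13 with total counts, -0.091 with limma on log2(FPKM + 1) and -0.13 on log2(FPKM + 0.1). The median of the AU-rich decay list ranged from -0.041 to 0.019 when a library was left out, the latter without rhCYGB library 1. The cause was not tested. By CPM, which is not per length, 5 genes in untreated and 4 in rhCYGB-treated cells kept their rank. By read counts in place of FPKM, the share of FOSL1 rose by 3.35 and that of JUND by 6.81 points, against 2.86 and 8.95. The mean shares of FOSL1 and FOSL2 by read counts were 48.80% and 48.86% in untreated and 52.15% and 46.6% in rhCYGB libraries. In untreated cells FOSL1 was therefore the main FOS family member only per length. Of all recomputed values, those above included, 508 were labelled as unchanged. For the fitted change of a gene this meant the same sign and call, and for a share a move smaller than the spread. Counts of genes and list medians were labelled unchanged within a set limit. Of the other values, 57 moved past these limits, 5 reversed sign and 11 lost a call. Transcript shares of FOSL1 and JUND whose difference was within the spread could change sign.

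No effect shared by libraries of the same replicate number was seen. Deviations of same-numbered libraries correlated at -0.048, 0.0072 and 0.0055, and not every library correlated best with its own number. Such values cannot show whether the libraries were paired by design, which the labels do not state. With the replicate number as a block (the replicate block fit), 5716 genes were higher and 5635 lower, and 8 of the 10 genes were higher and 1 lower, as without it. Genes with few reads, such as EGR2, are limited by depth.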
